A study of Mus musculus with 4 samples.

Results

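The genes described here are the microRNA genes that drew fragments in Illumina TruSeq RNA-seq of differentiating mouse ESCs. Members are the gene symbols of microRNAs, Mir followed by a digit or by let7, whose raw counts summed to at least 10 over the 4 libraries. The rule took 87 of 1180 microRNA symbols, out of 24421 gene symbols in all. The other microRNA symbols held 1 to 9 counts in 279 cases and 0 in every library in 814. Of the 87 members, 81 are hairpin genes, annotated at the precursor itself, and 6 are host transcripts, long RNAs named after the microRNA they carry (Mir17hg, Mir22hg, Mir99ahg, Mir124a-1hg, Mir143hg and Mir155hg). Members were chosen by their summed count, so the counts per state are described with that choice in mind. Of the members, 27 reached 10 counts in each state, 34 in Undiff alone, 12 in Day4 alone and 14 in neither, and for those that reached it through 1 state a difference was partly built in.

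The cells were R1, an established mouse ESC line, in the states Undiff and Day4 with 2 libraries each. Undiff is described in the series design as ESCs grown for 4 days in ESC medium, and its tissue label names embryoid bodies, aggregates in which ESCs differentiate. For Day4, embryoid bodies were grown for 4 days and then given RA (retinoic acid, derived from vitamin A) for 4 more. The dose is 2 µM in the series design and 2 mM in the sample labels. The states also differed in leukaemia inhibitory factor, which holds ESCs undifferentiated and was used for Undiff, so that RA, the loss of this factor, aggregation and time in culture cannot be told apart.

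A microRNA is cut from a long primary transcript in 2 steps. Drosha and Dgcr8 release the hairpin in the nucleus, Dicer1 trims it in the cytoplasm, and the mature strand guides an Argonaute protein to messenger RNAs that pair with its seed. Many microRNAs lie in introns or exons of other genes, and neighbours are often cut from 1 shared transcript. In ESCs the mir-290, mir-302 and mir-17 families are known for holding up proliferation, while let-7 is known for accumulating as ESCs differentiate. Libraries of this kind select long RNA, so the counts read primary transcript, precursor or host RNA and not the mature strand.

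The mature strands below belong to members and host transcripts described further on, whether or not these were DEGs. They are shown so that members on different chromosomes can be read by their shared seed. The strands were taken from RefSeq (GRCm38.p6), with the seed, bases 2 to 8, in capitals. Of the 81 hairpin members, 76 had a mature entry, with 125 strands and 118 seeds. The first 2 sets belong to the mir-17 family and its paralogues, of which miR-17, miR-18a, miR-19a, miR-20a and 1 source of miR-92a lie in Mir17hg.
mmu-miR-17-5p: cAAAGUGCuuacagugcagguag
mmu-miR-20a-5p: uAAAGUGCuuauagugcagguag
mmu-miR-93-5p: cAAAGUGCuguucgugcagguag
mmu-miR-18a-5p: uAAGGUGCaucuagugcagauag
mmu-miR-19a-3p: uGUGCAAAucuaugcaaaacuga
mmu-miR-92a-3p: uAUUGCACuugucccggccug
mmu-miR-363-3p: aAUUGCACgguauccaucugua
mmu-miR-25-3p: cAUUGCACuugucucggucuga
The seed AUUGCAC was the one most shared among the members, by Mir25, Mir363 and Mir92-2.

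The next set holds the let-7 strands of members and host transcripts and the miR-99a and miR-125 strands that lie beside them in the genome.
mmu-let-7d-5p: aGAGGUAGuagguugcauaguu
mmu-let-7f-5p: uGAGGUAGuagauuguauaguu
mmu-let-7c-5p: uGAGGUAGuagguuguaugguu
mmu-miR-99a-5p: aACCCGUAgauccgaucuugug
mmu-miR-125b-5p: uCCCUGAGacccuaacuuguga
mmu-miR-125a-5p: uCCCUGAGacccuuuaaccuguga
The strands let-7c, miR-99a and miR-125b lie in Mir99ahg, and miR-125a is a member of its own. The last set gives a pair of strands from the Hox clusters, a pair that shares a seed, and strands of members set against their host genes.
mmu-miR-10a-5p: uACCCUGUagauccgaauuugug
mmu-miR-196a-5p: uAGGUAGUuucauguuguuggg
mmu-miR-130b-3p: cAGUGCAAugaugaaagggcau
mmu-miR-301a-3p: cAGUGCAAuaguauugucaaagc
mmu-miR-26b-5p: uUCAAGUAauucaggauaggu
mmu-miR-335-5p: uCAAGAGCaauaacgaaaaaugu
mmu-miR-483-3p: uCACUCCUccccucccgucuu

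The libraries held 32099074 to 47730944 counts on genes. Fragments on no gene made up 12.1% and 13.2% in Undiff and 7.50% and 7.74% in Day4. All 8 markers of pluripotent ESCs were lower in Day4, at a summed 4546 and 4563 CPM (counts scaled to a common library total) in Undiff and 26.2 and 21.0 in Day4. Among the other lists, 6 of 6 endoderm, 3 of 4 endothelium, 3 of 4 blood and 4 of 5 fibroblast markers were higher in Day4, and 2 of 6 neural and 2 of 5 cardiac markers, with as many of these last lists lower. Fewer cells of a type and less RNA per cell cannot be told apart in such bulk samples. Members at the threshold were few, with 3 symbols at a sum of 10 and 6 at 11. Just outside it, 12 symbols had a sum of 9 and 10 had 8, among them Mirlet7e with 0, 0, 3 and 5 counts in the order Undiff 1, Undiff 2, Day4 1 and Day4 2. This order is kept for all counts that follow.

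Between the states, 33 of the 87 members were DEGs, beside 42.8% of all genes tested. A DEG had to reach an adjusted p of 0.05 or less in edgeR's quasi-likelihood test and a log2 fold change of 1 or more in size. Its mean over the libraries had to be 5 normalized counts or more, a minimum met by 54 members. Lower in Day4 were 28 members, or 32.2%, and higher were 5, or 5.75%. Over all 19891 genes tested, 20.6% were lower and 22.2% higher. Low counts matter for this reading. Among the 2974 genes with sums of 10 to 100, a class set after the values were seen, 32.5% were lower and 18.2% higher, so the members' share of lower DEGs was close to that of other sparse genes, and their share of higher DEGs was below it. The median log2 fold change was -1.17 over the members, also with members at 0 in 1 state put at their bound, -0.76 in that class and -0.03 over all genes tested. Libraries of the states did not overlap in normalized count for 53 members lower and 17 higher in Day4, and all genes tested gave 42.7% in each direction. Of the 27 members with at least 10 counts in each state, 11 were lower and 1 was higher.

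**Figure D1:**
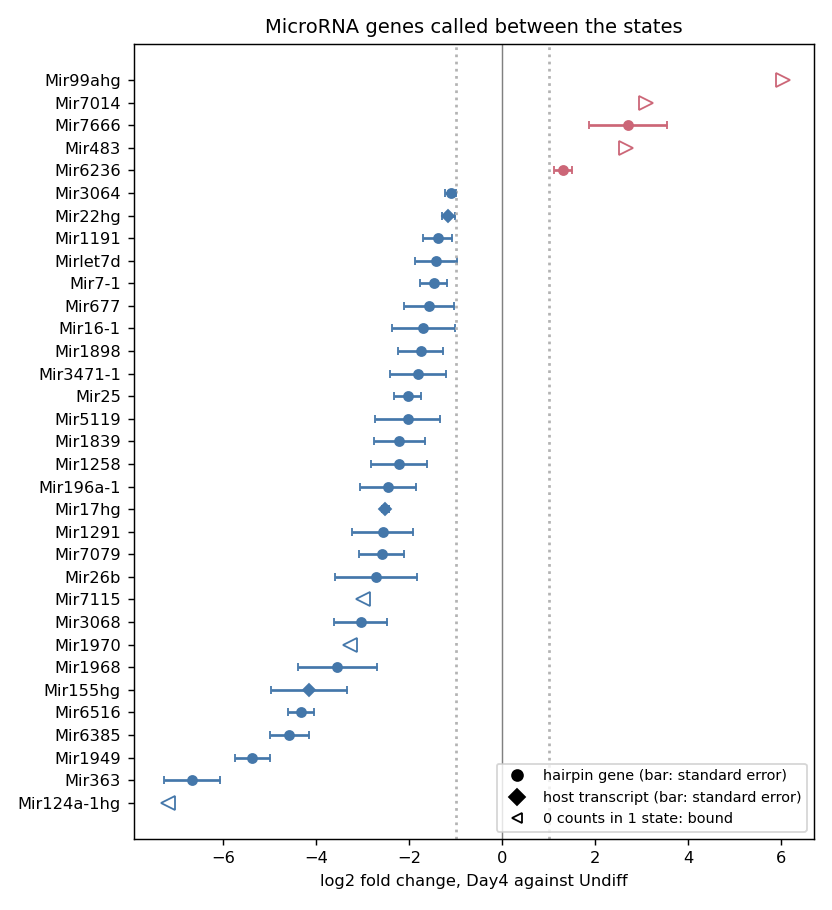
The 33 member DEGs, with the log2 fold change of Day4 against Undiff on the horizontal axis, dotted lines at 1 and -1, bars for the standard error (n = 2 libraries a state) and open triangles for lower bounds where a state had 0 counts. The 28 lower members run from Mir3064 to Mir124a-1hg, and 3 of the 5 higher members were at 0 in Undiff.

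The host transcripts carried most of the change in fragments. Together they took 61.8 and 71.7 CPM in Undiff and 16.1 and 16.2 in Day4, whereas the 81 hairpin genes together took 53.4 and 56.1 against 38.5 and 38.7. Of the 6 host transcripts, 4 were lower in Day4, 1 was higher and 1 was not a DEG.

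Mir17hg, the primary transcript of the mir-17-92 cluster (chr14:115042879-115046727, plus strand, GRCm38), was the most counted member. It had 1888, 1914, 354 and 486 counts, or 2129 ± 228 and 371 ± 2.36 normalized counts (mean ± SD, n = 2). Both Day4 libraries were far below both Undiff libraries, and the log2 fold change was -2.52 (SE 0.08, adjusted p 5.9e-12). Among the strands it encodes are the miR-17, miR-18a, miR-19a, miR-20a and miR-92a printed above.

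Mir124a-1hg, a host transcript of miR-124, which is best known from neurons, had 167 and 178 counts in Undiff and 0 in both Day4 libraries. It was at least 145-fold lower in Day4, taking 3 counts over the group as the floor for 0. In the same libraries 2 neural markers were higher and 2 lower. Mir155hg, host of miR-155, had 12, 20, 0 and 2 counts. Its ratio of Undiff to Day4 was 20.1, with a 95% counting interval of 5.14 to 173 (exact, covering counting error only), and its adjusted p was 3.3e-04. All its Day4 counts were in Day4 2, and without Day4 1 its log2 fold change was -3.44. Without Undiff 2 its mean fell to 4.97 normalized counts, just under the minimum.

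Mir22hg, host of miR-22, had 191, 177, 87 and 120 counts, or 205 ± 9.01 and 91.5 ± 0.88 normalized counts. The libraries of the states did not overlap, and the log2 fold change was -1.16 (SE 0.14, adjusted p 3.2e-06). Mir143hg, host of miR-143 and miR-145, which are known from smooth muscle, had 7, 13, 15 and 23 counts. Its log2 fold change of 0.59 (SE 0.44, adjusted p 0.25) did not pass, and the interval of its Day4 to Undiff ratio ran from 0.86 to 2.74.

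Mir99ahg, the long host of miR-99a, let-7c and miR-125b (chr16:77236317-77773427, plus strand), went the other way. It had 0 counts in both Undiff libraries and 106 and 143 in Day4, or 110 ± 0.66 normalized counts, and was at least 65.9-fold higher.

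**Figure D2:**
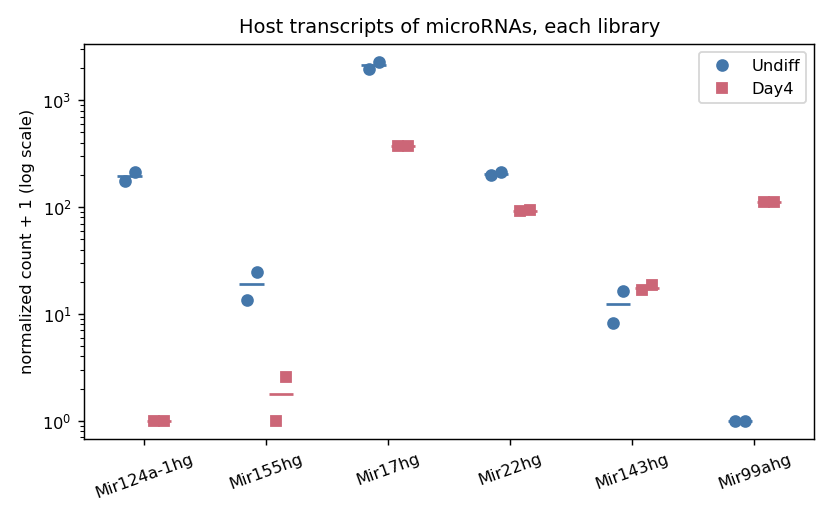
Normalized count plus 1, on a log axis, of the 6 host transcripts in each library (circles Undiff, squares Day4, short lines the mean of 2). Mir124a-1hg stood at 0 in Day4 and Mir99ahg at 0 in Undiff, and Mir143hg is the transcript whose states lay closest.

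The paralogues of mir-17-92 were lower in Day4 at both other loci. Mir363 and Mir92-2, of the mir-106a-363 cluster on the X chromosome (chrX:52741693-52742567, minus strand), lie in no other annotated gene. Mir363 had 60, 43, 0 and 1 counts, a ratio of Undiff to Day4 of 130 (interval 22.8 to 5170, adjusted p 6.5e-08). Its only Day4 count was in Day4 2, and without Day4 1 its log2 fold change was -6.01. Mir92-2 had 8, 8, 0 and 0 counts, at least 6.71-fold lower, but its mean normalized count of 4.48 was below the minimum for a DEG. All 6 hairpin genes of the cluster together held 72 and 56 counts in Undiff and 0 and 1 in Day4.

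The mir-106b-25 cluster lies within Mcm7, a subunit of the replicative helicase (chr5:138165321-138165818, minus strand). Mir25 had 62, 46, 12 and 21 counts, with a log2 fold change of -2.03 (SE 0.29, adjusted p 2.1e-05). Mir93 had 6, 5, 1 and 1, at a ratio of 6.92 (interval 1.51 to 64.3), under the minimum mean count, and Mir106b, outside the rule, had 3, 1, 1 and 4. Mcm7 itself had 18621, 15116, 9288 and 13281 counts, a log2 fold change of -0.91 (SE 0.05) that was below the size needed for a DEG. The 4 genes counted here that yield the seed AUUGCAC, Mir17hg, Mir363, Mir92-2 and Mir25, were lower in Day4 in normalized count. All but Mir92-2 were DEGs. Mir363 and Mir92-2 lie in the same cluster and reached 10 counts in Undiff alone, so their difference was partly built in.

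The genes of let-7 and its neighbours did not move together. Mirlet7d, on chromosome 13, had 21, 20, 12 and 7 counts and a log2 fold change of -1.43 (SE 0.44, adjusted p 0.010). Without the second Day4 library that value was -0.89 and not a DEG, nor was it one in DESeq2 (adjusted p 0.10). Without the first Day4 library it was -2.06. Mirlet7f-1, beside it, had 7, 5, 2 and 3 counts (log2 fold change -1.54, SE 0.71, adjusted p 0.065).

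Mir125a had 0 counts in both Undiff libraries and 9 in each Day4 library, at least 4.77-fold higher, under the minimum mean count at 4.08. With Mirlet7e and Mir99b, its neighbours on chromosome 17, the cluster had 0 and 0 counts in Undiff and 12 and 15 in Day4, at least 7.15-fold higher. The cluster overlaps Spaca6, a gene known for gamete fusion, which had 59, 38, 358 and 484 counts (log2 fold change 2.78, SE 0.14). Of the RNAs at let-7 loci, Mir99ahg and Spaca6 were thus higher DEGs and Mirlet7d a lower one.

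A pair of Hox-cluster microRNAs on chromosome 11 also had changes of opposite sign. Mir10a had 0, 0, 5 and 11 counts, at least 4.24-fold higher in Day4, with a mean normalized count of 3.42 below the minimum. Mir196a-1 had 15, 12, 1 and 5 counts, with a log2 fold change of -2.45 (SE 0.60, adjusted p 2.3e-03). That value was -1.94 without Day4 1 and -3.71 without Day4 2. They lie on the plus strand at chr11:96317165-96317274 and chr11:96265164-96265265.

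Other clusters were either sparse or mixed. In all, 5 groups of members, holding 12 members, lay within 10 kb of a neighbour on the same strand. In the imprinted Dlk1-Dio3 region of chromosome 12, known for its maternally expressed RNAs, Mir382, Mir453, Mir377 and Mir3072 lie in Mirg, a long noncoding RNA with 935, 830, 365 and 440 counts (log2 fold change -1.46, SE 0.08, a DEG). Their log2 fold changes were -1.08, -1.29, -1.16 and -0.81, none of them a DEG. The 38 hairpin genes of that stretch summed to 54, 40, 24 and 35 counts, a ratio of Undiff to Day4 of 2.01 (interval 1.43 to 2.83). Mir1188, in an intron of Rian from the same region, had 9, 6, 1 and 0 counts, and Rian a log2 fold change of -0.84. Another stretch of the region, with 14 hairpin genes, held 8, 12, 12 and 7 counts, a ratio of 1.32 (interval 0.67 to 2.62), and its members Mir3070a and Mir3070b each had a log2 fold change of 0.45 (SE 0.86 and 0.89).

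The microRNAs best known from ESCs drew almost nothing. The 14 genes of the mir-290 and mir-302 clusters had no member, and only Mir290a (1, 3, 0 and 0 counts), Mir302b (2, 1, 0 and 0) and Mir302c (0, 1, 0 and 0) were counted at all. With such counts no difference was detectable at this depth. Mir467c lies with 70 other hairpin genes in an intron of Sfmbt2, and 65 of those were at 0. It had 4, 4, 11 and 12 counts while Sfmbt2, a Polycomb-group gene, was lower (1371, 1376, 295 and 393, log2 fold change -2.33, SE 0.08). Mir467c has near-identical transcripts in Mir467d and Mir467e, and its log2 fold change of 1.17 did not pass (SE 0.57, adjusted p 0.079).

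The hairpin genes with the largest losses included several that overlie other small RNA genes. In the annotation, 6 hairpin members overlap a small nucleolar or Cajal-body RNA gene, classes that guide chemical marking of other RNAs. All 6 were lower DEGs, in a group formed after the values were seen. Lower DEGs made up 20.6% of all genes tested and 32.5% of those with sums of 10 to 100. Mir1949, Mir3068, Mir1839 and Mir1291 reached 10 counts in Undiff alone, so their difference was partly built in. Together the 6 held 299 and 286 counts in Undiff and 21 and 31 in Day4.

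Mir6516, on a Cajal-body RNA gene in an exon of Snhg20 (chr11:117077348-117077457, plus strand), had 143, 149, 5 and 13 counts and a log2 fold change of -4.33 (SE 0.28, adjusted p 5.7e-09). Snhg20 itself had 239, 234, 126 and 182 counts (log2 fold change -0.95, SE 0.12). Mir1949, on chromosome 18, had 98, 76, 3 and 2 counts (log2 fold change -5.38, SE 0.38, adjusted p 1.5e-08). The drop of both was large beside its SE. The ratios of Undiff to Day4 were 20.4 (interval 12.7 to 34.9) and 43.8 (18.4 to 137), with intervals that cover counting error and not the spread between libraries.

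The other 4 were Mir3068 (18, 23, 1 and 5), Mir1839 (15, 19, 6 and 3), Mir1291 (10, 10, 2 and 2) and Mir677 (15, 9, 4 and 6), with log2 fold changes from -3.05 to -1.57. With 1 library left out, the log2 fold change ran from -4.31 to -2.54 for Mir3068, -2.98 to -1.60 for Mir1839 and -4.96 to -4.01 for Mir6516, each time set by the Day4 library left out. Mir677 was not a DEG without Undiff 1, without either Day4 library, or in DESeq2, and Mir1291 not without Undiff 2 or in DESeq2 without shrinkage. Without these 6, 18 of 75 hairpin genes were lower and 4 higher. The share of fragments on no gene was also higher in Undiff, and its part in these results was not tested.

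A further 6 hairpin members lay in a gene on the opposite strand only, and that gene was counted for 5 of them, all but Mir703. The methods name strand-specific gene counting for ONT Direct RNA and not for TruSeq, and where strand was not used, reads of such a pair cannot be told apart. For its exon counts the paper ran TruSeq without strand. Mir6385, opposite an exon of Pml, had 56, 63, 3 and 3 counts (log2 fold change -4.58, SE 0.42). Pml, which organizes nuclear bodies, had 8907, 7998, 1718 and 2329 (log2 fold change -2.40, SE 0.05). Mir1970 had 13, 10, 0 and 0 counts, at least 9.65-fold lower, while the gene across from it, Gprasp1, had a log2 fold change of 0.91. It fell under the minimum mean count without either Undiff library.

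**Figure D3:**
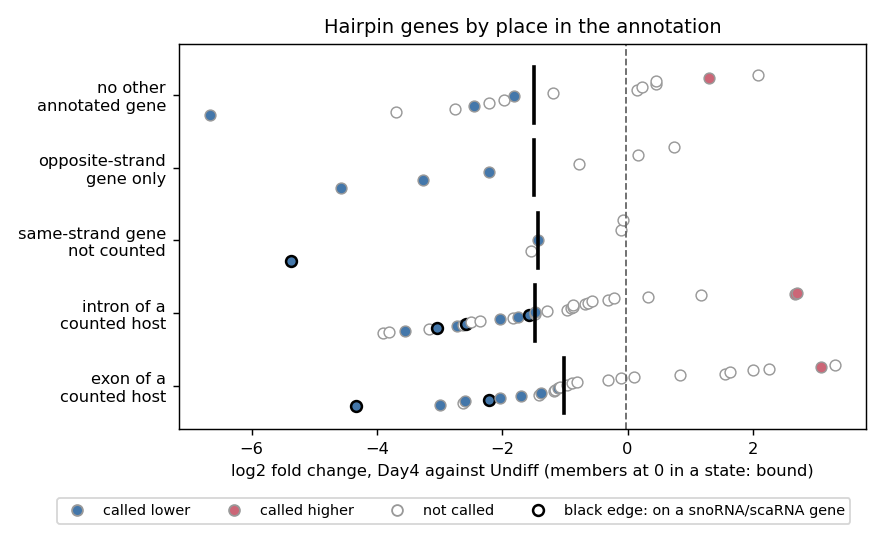
Log2 fold change of the 81 hairpin genes by their place in the annotation, with filled points for DEGs, black edges for genes on a small nucleolar or Cajal-body RNA gene, thick lines for the median of each place and a dashed line for the median of all genes tested. Members at 0 in 1 state are at their bound. All 5 medians lie between -1.50 and -1.02, left of the dashed line at -0.03. The median of genes with sums of 10 to 100 was -0.76, and the hairpin genes were chosen by their summed count.

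Most hairpin members shared a strand with a counted host gene. Host genes were found for 56 members, 52 genes in all, with 30 members in introns and 26 overlapping an exon of at least 1 annotated transcript. Of the 52 hosts, 10 were higher and 5 lower DEGs, beside 22.2% higher and 20.6% lower over all genes tested. In introns, 8 members were lower and 2 higher. In exons, 8 were lower and 1 higher. Another 5 members lay in a same-strand gene that was not counted, with 2 lower, and 14 lay in no other annotated gene, with 3 lower and 1 higher. The shares lower ran from 21.4% to 40% over these places, beside 32.5% of genes with sums of 10 to 100. The shares higher ran from 0% to 7.14%, beside 18.2%.

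Hairpin genes had lower fold changes than their hosts in most pairs. Members were chosen by their summed count and hosts were not. For members that reached 10 counts in 1 state alone, a difference from the host was thus partly built in. Low counts matter here too, as genes with sums of 10 to 100 had a median log2 fold change of -0.76. The log2 fold change of the member was below that of the host in 26 of 30 intronic and 18 of 26 exonic pairs, with members at 0 in 1 state at their bound. Mir125a, Mir483 and Mir7014, at 0 in Undiff, have only a lower bound and no settled place against their hosts. Without them the counts were 25 of 29 and 16 of 24. The medians in introns were -1.47 for members and 0.08 for hosts, and in exons -1.02 and -0.05. Spearman's coefficient was 0.31 across the 56 pairs, with members at their bound, and 0.20 across the 53 pairs without Mir125a, Mir483 and Mir7014. It serves as a description, since the pairs share libraries and sparse counts. The 30 intronic members took 1.24 and 1.27 counts per 1000 host counts in Undiff and 0.36 and 0.32 in Day4. Without Mir483 and its abundant host Igf2, left out after the values were seen, the Day4 values were 0.57 and 0.52 and the Undiff values 1.25 and 1.27. The lower share of fragments on no gene in Day4 moved the same way, and its part was not tested.

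Mir26b was the only DEG that went against a host DEG on its own strand. It lies in an intron of Ctdsp1, a phosphatase of RNA polymerase II and of neuronal gene silencing (chr1:74394310-74394394, plus strand). It had 12, 5, 0 and 3 counts, a ratio of Undiff to Day4 of 7.13 (interval 2.06 to 38, adjusted p 0.012), while Ctdsp1 had 692, 622, 6135 and 8303 counts (log2 fold change 3.13, SE 0.05). The call rested on few counts, and was lost without Undiff 1 (log2 fold change -2.08, adjusted p 0.11) and in DESeq2. All its Day4 counts were in Day4 2, and without Day4 1 the log2 fold change was -1.98.

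Mir335, in an intron of the imprinted gene Mest, had 2, 10, 6 and 7 counts (log2 fold change -0.21, SE 0.71), and its states overlapped. Mest had 6644, 6415, 42751 and 54894 (log2 fold change 2.57, SE 0.05). Of the other intronic members whose host was higher, Mir3473a (5, 5, 2 and 0; Syap1 1.56), Mir6942 (5, 4, 2 and 1; Zkscan3 1.93) and Mir8116 (2, 6, 1 and 4; Ache 2.81) did not pass themselves, with log2 fold changes of -2.50, -1.82 and -0.97.

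Several members fell in abundant hosts that were not DEGs. Mir7-1, in an intron of Hnrnpk, an RNA-binding protein gene, had 43, 41, 14 and 24 counts (log2 fold change -1.47, SE 0.29, adjusted p 4.3e-04), and Hnrnpk a log2 fold change of 0.04 (SE 0.04). Mir3064, in Ddx5, a helicase of the Drosha complex (chr11:106782693-106782759, minus strand), had 227, 202, 112 and 137 counts (log2 fold change -1.11, SE 0.13, adjusted p 2.5e-06), and Ddx5 -0.05 (SE 0.04). Mir7079, in Rpl13 of the large ribosomal subunit, had 22, 32, 6 and 5 counts (log2 fold change -2.60, SE 0.48), and Rpl13 -0.12 (SE 0.04).

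Mir16-1, in Dleu2, had 9, 7, 1 and 5 counts (log2 fold change -1.70, SE 0.68, adjusted p 0.037) and Dleu2 had 0.71 (SE 0.22). It was not a DEG without Undiff 1, Undiff 2 or Day4 1, nor in DESeq2, and its log2 fold change was -1.19 without Day4 1 and -2.97 without Day4 2. Among pairs that fell together, Mir7115 had 12, 7, 0 and 0 counts, at least 7.97-fold lower, and its host Arrb2, of receptor desensitization, a log2 fold change of -1.12 (SE 0.05). Without either Undiff library its mean count was below the minimum.

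Mir130b and Mir301, which share the seed AGUGCAA, stood apart. Mir130b had 8, 6, 0 and 1 counts, a ratio of Undiff to Day4 of 17.6 (interval 2.68 to 745), in a host that was lower (2610318N02Rik, log2 fold change -1.30). Mir301 had 3, 2, 5 and 3 (log2 fold change 0.33, SE 0.82), in Ska2, whose log2 fold change was 0.97. Neither member reached the minimum mean count. Mir24-2 had 7, 6, 1 and 0 counts and no counted host.

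**Figure D4:**
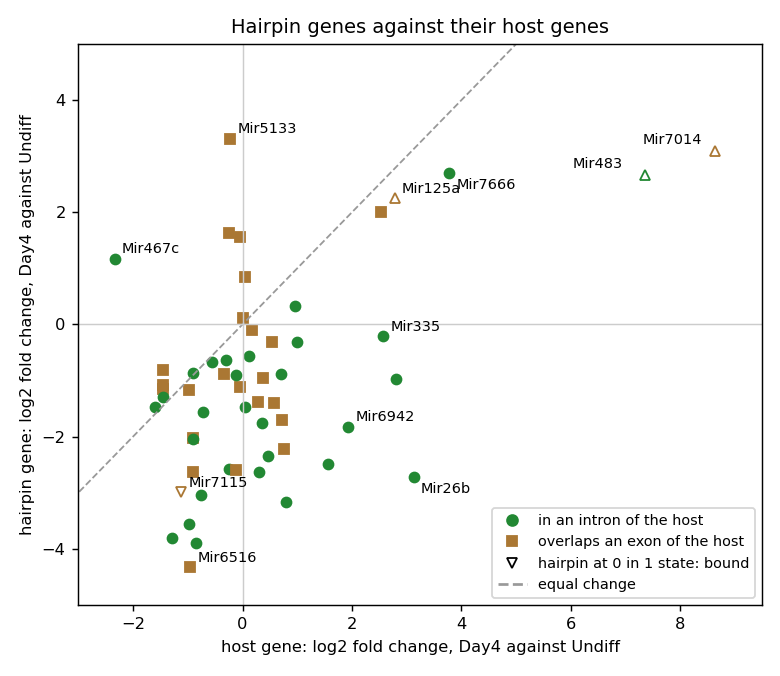
Log2 fold change of 56 hairpin genes on the vertical axis against that of their same-strand host on the horizontal axis, circles for introns, squares for exons and open triangles for bounds, with a dashed line of equal change. With bounds as drawn, 44 of the 56 pairs lie below the line, or 41 of 53 without the 3 members at 0 in Undiff. Hairpin genes but not hosts were chosen by their summed count. Mir26b and Mir335 stand low under hosts that were higher in Day4.

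The 4 hairpin genes that were higher in Day4 had 3 hosts between them on their own strand, all higher as well. Mir7014, overlapping an exon of Ecm1, an extracellular matrix gene, had 0, 0, 13 and 19 counts, at least 8.47-fold higher. Ecm1 had 236, 167, 88439 and 112392 counts, a log2 fold change of 8.64 (SE 0.07). Mir483, in an intron of the imprinted growth factor gene Igf2 (chr7:142654924-142654996, minus strand), had 0, 0, 15 and 9 counts, at least 6.36-fold higher, and Igf2 had 993, 832, 166089 and 206916 (log2 fold change 7.35, SE 0.06).

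Both hosts gained far more fragments than their hairpins held in all. Mir7666, in an intron of Fgf20, had 0, 3, 14 and 12 counts, at a Day4 to Undiff ratio of 6.89 (interval 2.11 to 35.5), and Fgf20, a fibroblast growth factor gene, had 4, 2, 58 and 49. Mir7666 also lies opposite an exon of Micu3, a lower DEG with 1168, 1040, 528 and 718 counts (log2 fold change -1.16, SE 0.06). Without either Day4 library, Mir7014 and Mir483 were under the minimum mean count, and Mir7666 was lost without Undiff 1 (log2 fold change 1.65) or Day4 1 (2.38) and in DESeq2. Its Undiff counts were all in Undiff 2.

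Mir6236 had no host and was the most counted of these 4, with 79, 82, 171 and 331 counts. The Day4 libraries lay apart, at 216 ± 53.4 normalized counts against 90.2 ± 11.2 in Undiff, for a log2 fold change of 1.30 (SE 0.19, adjusted p 2.8e-05). Without Day4 2 that value was 0.96, below the size for a DEG. The search for near-identical copies covered annotated transcripts only, so ribosomal RNA outside that annotation was not searched for Mir6236. The ribosomal RNA precursor gene Rn45s was a lower DEG, with 85478, 41380, 23306 and 37434 counts (log2 fold change -1.38, SE 0.18). Its part in the counts of Mir6236 was not tested, and these are uncertain as a measure of the hairpin. Mir345, overlapping an exon of Slc25a47, had 1, 2, 9 and 7 counts, and Mir5133, overlapping an exon of Glce, had 0, 1, 8 and 7. Both were under the minimum mean count.

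The hairpin genes with the most counts were not DEGs. Mir703 had 384, 349, 422 and 613 counts (log2 fold change 0.16, SE 0.08, adjusted p 0.098) and Mir682 had 201, 196, 210 and 255 (-0.10, SE 0.12, adjusted p 0.44). Both have near-identical transcripts elsewhere, Mir703 in Eef1a1, the abundant elongation factor gene, and Mir682 at 13 other loci, among them the ribosomal protein gene Rpl37a. Their values are therefore uncertain as measures of the hairpins. Eef1a1 and Rpl37a had log2 fold changes of 0.07 (SE 0.03) and -0.12 (SE 0.04). Mir684-1, near-identical to part of Sumo2, had 18, 21, 48 and 34 (0.74, SE 0.37). With Mir467c these are the 4 hairpin members for which such copies were found among annotated transcripts, and none was a DEG.

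Of the remaining DEGs, all lower, Mir1968 (13, 8, 0 and 2), Mir1258 (11, 12, 3 and 3), Mir5119 (12, 5, 2 and 3), Mir3471-1 (11, 9, 4 and 3), Mir1898 (16, 14, 5 and 6) and Mir1191 (35, 34, 15 and 18) had log2 fold changes from -3.55 to -1.39. Mir5119 and Mir3471-1 were not DEGs without Undiff 1 or Day4 2 or in DESeq2, and Mir1258 and Mir1898 were not in DESeq2. Without Undiff 1 the log2 fold change of Mir5119 was -1.39. Mir1968 was under the minimum mean count without Undiff 1, had all its Day4 counts in Day4 2 and had a log2 fold change of -2.83 without Day4 1. Of the 54 members that were not DEGs, 14 passed all but the minimum mean count, 10 of them lower and 4 higher in Day4.

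The genes that make, modify and use microRNAs were read from the same test, as a list of 33 genes. Of these, 6 were higher, 3 lower and 24 not DEGs, beside 22.2% higher and 20.6% lower over all genes tested. The core enzymes held within 1 log2 unit. Drosha had a log2 fold change of -0.48 (SE 0.04), Dgcr8 of -0.30 (SE 0.06), the exporter Xpo5 of -0.53 (SE 0.05), Dicer1 of -0.37 (SE 0.05) and Ago2 of 0.19 (SE 0.05). These shifts were small, and all 5 had an adjusted p under 0.05.

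The largest changes on the list were those of Lin28a and Trim71. Lin28a, which blocks let-7 processing, had 12990, 11644, 140 and 203 counts, a log2 fold change of -6.50 (SE 0.06, adjusted p 1.9e-16). Trim71, a let-7 target and RNA-binding ubiquitin ligase, had 3174, 3055, 63 and 104 (-5.56, SE 0.10), and Lin28b had 3062, 2838, 1066 and 1519 (-1.53, SE 0.06). No library of one state came near the other for any of the 3.

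Higher in Day4 were Zswim8 (log2 fold change 2.36, SE 0.05), a ubiquitin ligase part needed for target-directed microRNA decay, Prkra (1.71, SE 0.07), a Dicer partner, and Zcchc11 (1.51, SE 0.05), which adds uridines to let-7 precursors. Ago4 (1.18, SE 0.15), Tnrc6b (1.13, SE 0.05), a partner of Argonautes, and Dis3l2 (1.07, SE 0.07), which degrades uridylated precursors, were higher too. Dis3l2 had a log2 fold change of 0.99 without Day4 2.

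**Figure D5:**
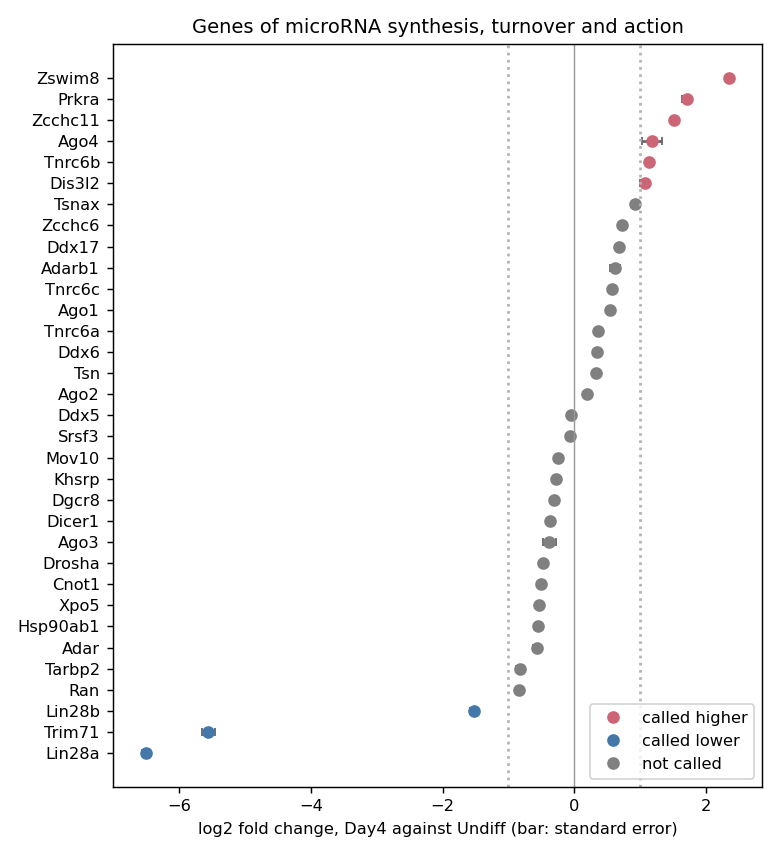
Log2 fold change of Day4 against Undiff for 33 genes of microRNA synthesis, turnover and action, with bars for the standard error (n = 2 libraries a state), colour for the call and dotted lines at 1 and -1. Lin28a and Trim71 stand far below the rest, and Drosha, Dgcr8 and Dicer1 lie between the dotted lines.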

How the data were processed

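Illumina TruSeq RNA-seq of R1 ESCs was analysed, with 2 Undiff and 2 Day4 libraries grouped by their labels. According to the submitters' processing notes and the paper, the authors used cutadapt for trimming, STAR 2.4.2a for alignment to mm10 and htseq-count for fragments per gene. The deposited values are whole-number counts without normalization. For gene counts the paper states that strandedness was taken into account and names ONT Direct RNA as run strand-specifically. The option for TruSeq is not named, and the paper's exon counts of TruSeq were made without strand. Fragments over more than 1 gene (1.84% to 1.91%) were set aside by the counter, so hairpins within host exons may be undercounted. The paper names a poly(A) kit and the labels also a ribosomal-depletion kit.

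The 19891 genes with a count entered edgeR 4.0.16 in R 4.3.3, with TMM scaling, glmQLFit in its non-legacy form, glmQLFTest and Benjamini-Hochberg adjustment over all of them. DEGs met 3 thresholds, 0.05 for the adjusted p, 1 for the size of the log2 fold change and 5 for the mean normalized count. Normalized counts are scaled to the libraries' mean effective size (geometric), and the SE is the size of the log2 fold change over the root of F. A state at 0 was given a floor of 3 counts. Intervals are exact binomial ones at 95% on summed counts, for counting error only. The exact permutation test of 2 against 2 libraries cannot go below p = 0.333 and was not used. The fit was tested on simulated data.

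Positions, hosts and small RNA overlaps came from GENCODE vM21 on GRCm38, which is not the annotation counted on. Near-identical transcripts were sought with BLAST 2.17.0 (95% identity over 80% of the hairpin) among GENCODE vM21 transcripts only, so copies outside that annotation would be missed. The members and lists were chosen with earlier results of these data known. Named by rule were members at 50 or more normalized counts on average, the 10 highest and 10 lowest member DEGs, members of fixed microRNA families, their hosts and the synthesis list. Other members were named after their values were seen. Alternatives were DESeq2 1.42.0 with and without shrinkage, other scalings, filterByExpr, a replicate block, each library left out, other thresholds and subsets.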

Additional observations from a re-analysis of the deposited data

How the results depend on the processing

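The number of members higher in Day4, 5, was 3 with filterByExpr, 9 without the minimum mean count and 2 with a sum of at least 40, and 2 to 7 with 1 library left out, lowest without Day4 1. For hairpin genes the 4 were 2, 8 and 1 under the same settings, and 1 to 6 with 1 library left out. The 28 members lower in Day4 were 16 at a sum of at least 40, 19 and 20 in DESeq2, and 22 to 31 with 1 library left out. The 24 hairpin genes lower were 13 at that sum, 15 in DESeq2 without shrinkage and 18 to 27 with 1 library left out. Of the 33 member DEGs, 16 were DEGs in all 12 fits that tested them, namely the main one, 7 other models or scalings and 4 with a library left out, and 17 were lost in at least 1. No named log2 fold change that was called changed sign. After seeing the data, hairpins with near-identical copies, on small RNA genes or in host exons were left out in turn, with 24, 18 and 16 lower. With the replicate number as a block, 28 members were lower and 5 higher, as without it, and the numbers did not pair the samples (correlation of deviations -0.005). Changes at these counts are limited by depth, since 20 members had at most 3 counts in Day4 and 8 in Undiff. The filter left 36 of 87 members to test. Leaving out a library left 1 in its state, assumed to vary like the other. The p-values rest on the spread between 2 samples a state, which edgeR estimates for each gene partly from the other genes tested.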
